A study of Sorghum bicolor with 18 samples.

Results

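First axillary buds of Sorghum bicolor cultivar 100M were followed on plants whose leaves were left in place, as a record of what buds do over the hours of the experiment without any leaf removal. The 9 intact libraries, 3 each at 1, 3 and 6 h, were taken by their labels out of 18 libraries in the series. The other 9 libraries came from leaf-removed plants at the same times, in which the coleoptile and first leaf had been peeled away to bare the bud, and they enter only where a time change of intact buds is set against theirs. All plants were 7 days past sowing when the hours began, and grew under 16 h of light and 8 h of dark at 32 °C by day and 22 °C by night. Each library is a pool of 15 buds. Of 4 pools harvested per group, the 3 with the best RNA on the Bioanalyzer were sequenced, and the replicate letters name pools, so p-values below measure the spread between pools.

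The hour of the clock at harvest is not given in the sources used here, so time of day, growth of the plant and hours since the start cannot be told apart. Since whole buds were pooled, fewer cells of a type and less RNA per cell cannot be told apart either. Gene names below are those of the Arabidopsis gene that the deposited table pairs with each sorghum gene, and roles are those known from Arabidopsis unless stated otherwise.

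In plants the circadian clock is a loop of transcription factors that repress each other in turn. LHY, a MYB factor, peaks around dawn and represses genes of the evening. Pseudo-response regulators (PRR) follow through the day and repress LHY, and an evening group with GIGANTEA (GI), TOC1 and LUX closes the loop. Axillary buds are small shoots in leaf axils that can stay dormant, and the TCP factor BRANCHED1 (BRC1, the counterpart of maize TB1) is known as a brake on their outgrowth.

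The intact libraries held 22403574 to 33831981 exon reads, with 97.4% to 97.6% of them unique, and 22543 to 24209 genes had a read. Reads in introns made up 3.20% to 7.23% of gene reads and averaged 5.33% at 1 h, 4.64% at 3 h and 3.83% at 6 h. The library 1 h c had the highest intron share, and it stood apart on the first principal component, at -109 where the other 8 libraries lay between -12.5 and 68.3. The library 6 h d had 4.92% intron reads, against 3.20% and 3.36% in the other 6 h libraries. Counts over all genes are also given without 1 h c and 6 h d, and so are counts of some lists that moved. Other list counts moved as well when these libraries were left out. At 6 h over 1 h the rises went from 3 to 5 in the starch list and from 9 to 14 in the phosphate starvation list. Over all tested genes they went from 863 of 20597 to 1095 of 20658, and the falls from 816 to 1187. Without these libraries 641 genes rose and 893 fell at 3 h over 1 h. At 6 h over 3 h 423 rose and 366 fell. List counts from that fit are to be read against these counts.

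**Figure D1:**
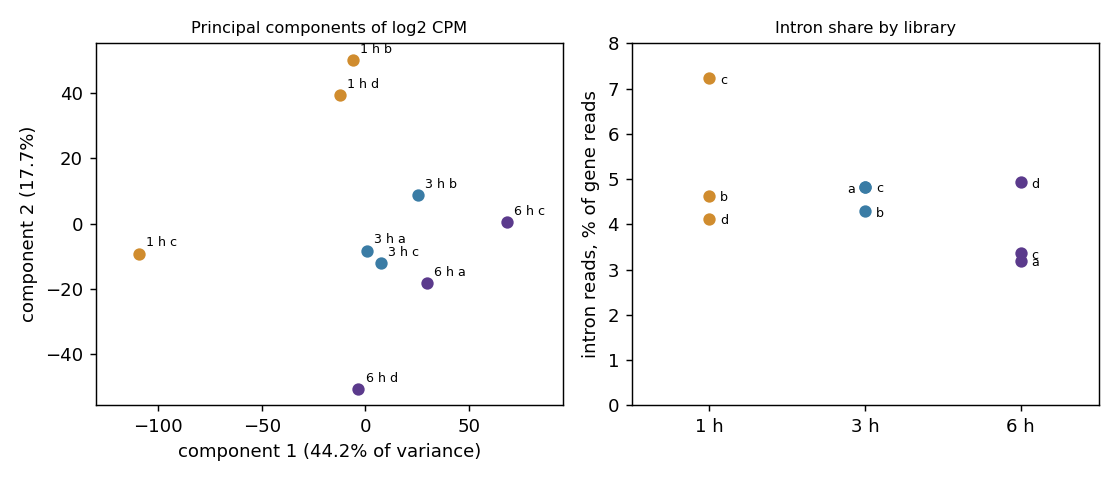
Principal components 1 and 2 of log2 CPM (left) and intron reads as a percent of gene reads (right) for the 9 intact libraries, coloured by hour and lettered by pool. The 1 h c library lies alone at -109 on component 1 and has the highest intron share, 7.23%.

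Some meristem and division markers were well expressed and others were near 0. The KNOTTED-like gene Sobic.001G106200, of the class that keeps shoot meristems undifferentiated, was at 17.5 to 31.4 RPKM (reads scaled to exon length and library size), and PCNA2 (Sobic.004G336600), the sliding clamp of DNA replication, was at 116 to 201 RPKM. The WUSCHEL-related genes WOX2 (Sobic.003G350900), WOX5 (Sobic.003G360200), WOX11 (Sobic.001G386600 and Sobic.002G421800) and WOX12 (Sobic.007G087600) had medians of 0.229, 0.275, 0.158, 0.472 and 0.114 RPKM, and the KNOTTED-like gene Sobic.001G140200 had one of 0.0784 RPKM. The PCNA1 genes Sobic.002G431700, Sobic.004G059300 and Sobic.005G071100 had medians of 0, 0.0204 and 0.720 RPKM. Of the markers of a working C4 leaf, PPDK (Sobic.001G326900) was at 4.16 to 6.30 RPKM, while RBCS1A (Sobic.005G042000), the Rubisco small subunit, was at 159 to 318 RPKM. NADP-ME4 (Sobic.003G036000), a NADP-malic enzyme, was at 53.0 to 114 RPKM and PEPC1 (Sobic.002G167000), a phosphoenolpyruvate carboxylase, at 28.6 to 42.9 RPKM. Another NADP-ME4 gene (Sobic.003G036200) was at 0.449 to 0.808 RPKM, and the carboxylase gene PPC2 (Sobic.010G160700) at 0.137 to 1.77 RPKM. The beta carbonic anhydrase genes Sobic.003G234200 and Sobic.003G234400 (both BCA4) had medians of 0.0995 and 13.6 RPKM. Which members of these families serve C4 photosynthesis was not tested. The gamma carbonic anhydrases GAMMA CA1 (Sobic.003G135600) and APFI (Sobic.002G395000), which in Arabidopsis are mitochondrial, were at 111 to 149 and 83.9 to 99.9 RPKM. The mature C4 leaf list of 48 genes summed to 2176 to 2199 CPM at 1 h, 2149 to 2239 CPM at 3 h and 1930 to 2056 CPM at 6 h, with 7 members at 0 in all intact libraries, among them the alpha carbonic anhydrase genes Sobic.004G166000 (ACA1) and Sobic.007G155050 (ACA3). It had 38 tested members, of which 2 fell and 0 rose at 6 h over 1 h (edgeR, with 1 at an unadjusted p under 0.05, 0 by DESeq2 and 0 by limma voom). Without 1 h c and 6 h d 1 rose and 4 fell. With all 9 libraries 4.19% of all tested genes rose and 3.96% fell at 6 h over 1 h.

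The whole span gave the most called genes and the last step the fewest. Of 20597 genes tested, 1271 changed over the 3 times, which is 6.17% (edgeR quasi-likelihood F test, Benjamini-Hochberg adjusted p under 0.05). At 3 h over 1 h 337 genes rose (1.64%) and 384 fell (1.86%), together 3.5% of tested genes. At 6 h over 3 h 79 rose (0.384%) and 45 fell (0.218%), together 0.602%. At 6 h over 1 h 863 rose (4.19%) and 816 fell (3.96%), together 8.15%. A change of at least 2-fold was seen in 143 genes that rose and 90 that fell at 3 h over 1 h, in 45 and 38 at 6 h over 3 h, and in 411 and 248 at 6 h over 1 h. Which direction held more calls depended on the setting. At 3 h over 1 h library totals in place of TMM factors gave 349 rises and 291 falls. At 6 h over 1 h there were 1095 rises and 1187 falls without 1 h c and 6 h d, and 1141 and 1198 with all 18 libraries in 1 fit. The median log2 fold change of all tested genes was 0.00 in each comparison.

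Of the 1271, 434 (34.1%) had their highest mean at 6 h and lowest at 1 h, and 393 (30.9%) had the reverse order. Another 224 (17.6%) were highest at 1 h and lowest at 3 h, and 136 (10.7%) were highest at 3 h and lowest at 1 h. Genes lowest at 3 h and highest at 6 h numbered 51 (4.01%), and those highest at 3 h and lowest at 6 h 33 (2.6%). Genes without an Arabidopsis match made up 6.92% of the changing genes and 11.1% of the tested ones.

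These counts moved when 1 library was left out. The 1271 genes became 565 without 6 h a, 580 without 3 h a, 592 without 1 h b, 610 without 3 h b, 679 without 3 h c and 774 without 1 h d. The 721 calls at 3 h over 1 h became 25 without 3 h a, 34 without 3 h b, 93 without 3 h c, 147 without 1 h b, 305 without 6 h a and 409 without 1 h d. The 124 calls at 6 h over 3 h became 34 without 3 h b or 6 h a, 35 without 3 h a, 48 without 3 h c, 58 without 6 h d, 79 without 1 h d, 80 without 6 h c, 82 without 1 h b and 253 without 1 h c. The 1679 calls at 6 h over 1 h became 776 without 6 h a, 922 without 6 h c, 937 without 1 h b, 1068 without 3 h b and 1102 without 3 h a. With 1 h c and 6 h d left out together, the calls were 1534, 789 and 2282. Single genes called on exon reads below kept their call without each of the 9 libraries in turn, unless a library or a number of libraries is named beside them. The same holds for calls on intron reads, and for differences between intact and leaf-removed buds over the 18 libraries, both run after seeing the data.

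**Figure D2:**
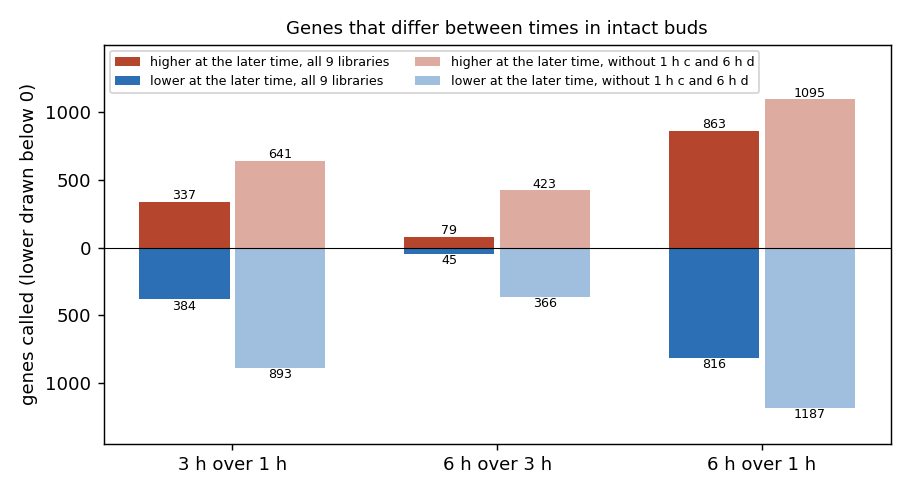
Genes called higher (above 0) and lower (below 0) at the later time for each pair of times in intact buds. Dark bars show all 9 libraries and pale bars the fit without 1 h c and 6 h d. With all 9, 863 genes were higher and 816 lower at 6 h over 1 h.

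Of the clock genes called at 6 h over 1 h, most of the morning ones fell and all of the evening ones rose, while other members of both lists had no call. The morning list held 11 tested genes, of which 1 rose and 5 fell at 6 h over 1 h, with a median log2 fold change of -0.46. The afternoon and evening list held 15 tested genes, of which 8 rose and 0 fell (edgeR, with 0 at an unadjusted p under 0.05, 0 by DESeq2 and 0 by limma voom), with a median of 1.51. At the first step, 3 h over 1 h, 4 of the 15 had already risen, with a median of 0.22, and 1 of the 11 had fallen. Of all tested genes 1.64% rose and 1.86% fell at that step. Over all tested genes 4.19% rose and 3.96% fell at 6 h over 1 h.

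LHY (Sobic.007G047400) stood at 1064, 1265 and 1035 CPM at 1 h, 655, 597 and 620.1 CPM at 3 h, and 151, 131 and 146 CPM at 6 h. The 3 groups did not overlap and each later one was lower. CPM are counts scaled to library size with TMM factors. Here and below ± after a log2 fold change is its standard error with 3 libraries per time. LHY fell at 3 h over 1 h (-0.85 ± 0.12, edgeR, Benjamini-Hochberg adjusted p = 0.011; lost without 3 h a, 3 h b or 3 h c) and fell further at 6 h over 3 h (-2.13 ± 0.13, edgeR, Benjamini-Hochberg adjusted p = 4.9e-05). Across the whole span it fell by 2.97 on the log2 scale (SE 0.13, edgeR, Benjamini-Hochberg adjusted p = 2.3e-06).

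Intron reads, which can come from unspliced RNA, were counted apart from exon reads in the same libraries, a readout added after the exon results were seen. LHY had 874, 2239 and 1104 intron reads in 1 h libraries, 472, 399 and 517 in 3 h libraries and 29, 41 and 67 in 6 h libraries. All 3 libraries at 6 h were below all at 3 h, which were below all at 1 h. The intron reads fell by 3.99 on the log2 scale at 6 h over 1 h (SE 0.26, edgeR on intron reads, Benjamini-Hochberg adjusted p = 3.9e-07). At 3 h over 1 h their fold change of -1.08 ± 0.22 had an edgeR, Benjamini-Hochberg adjusted p of 0.099. By intron reads LNK1 and the LNK3 locus also fell at 6 h over 1 h, by 1.39 and 2.48 on the log2 scale, and GI, FKF1 and the JMJ30 locus gene Sobic.007G210801 rose by 2.75, 5.07 and 5.50 (edgeR, Benjamini-Hochberg adjusted p between 0.0018 and 0.021). The LNK3 locus call was lost without 1 h b or 6 h c, and the GI call without 1 h b, 1 h c, 6 h a or 6 h c. Sobic.002G247200 and the PRR gene Sobic.005G044400 also rose by intron reads, by 3.08 and 1.64 (edgeR, Benjamini-Hochberg adjusted p = 0.030 and 0.014), calls lost without 5 of the 9 libraries in turn and without 1 h b or 6 h a. PRR5 (Sobic.002G275100), TOC1, CIR1 (Sobic.010G275700), PRR7 and ELF4-L4 were called on exon reads but not on intron reads at 6 h over 1 h. Their edgeR, Benjamini-Hochberg adjusted p on intron reads lay between 0.081 and 0.36. FKF1 and Sobic.007G210801 had 6 and 7 intron reads over the 1 h libraries. At 6 h they had 135 and 210, of which 84 and 163 were in 6 h d.

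LNK proteins act with RVE factors to switch on later clock genes. The gene matched to the LNK3 locus AT3G12320 (Sobic.003G134400) was at 83.3, 34.6 and 78.6 CPM at 1 h, 61.8, 67.1 and 60.2 CPM at 3 h, and 6.84, 13.0 and 8.29 CPM at 6 h. It was low in each 6 h library and overlapped between 1 and 3 h, where 1 h c was the lowest. It fell at 6 h over 1 h (-2.80 ± 0.33, edgeR, Benjamini-Hochberg adjusted p = 0.0013) and at 6 h over 3 h (-2.75 ± 0.33, edgeR, Benjamini-Hochberg adjusted p = 0.0056). The gene at the LNK1 locus AT5G64170 (Sobic.001G352400) was at 478, 813 and 519.8 CPM at 1 h, 447, 417 and 429 CPM at 3 h, and 219, 186 and 264 CPM at 6 h. AT5G64170 fell at 6 h over 1 h (-1.44 ± 0.21, edgeR, Benjamini-Hochberg adjusted p = 0.0032). The gene at the LNK2 locus AT3G54500 (Sobic.003G166200) was between 172 and 404 CPM with no call (6 h over 1 h -0.46 ± 0.22, edgeR, Benjamini-Hochberg adjusted p = 0.22).

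Among the REVEILLE genes, MYB factors related to LHY, the one named CIR1, also known as RVE2 (Sobic.010G275700), was at 46.1, 50.3 and 49.9 CPM at 1 h, 44.7, 52.4 and 43.2 CPM at 3 h, and 17.995, 25.0 and 16.2 CPM at 6 h. Its 1 h and 3 h libraries overlapped and all 6 h libraries were lower. It fell at 6 h over 3 h (-1.24 ± 0.17, edgeR, Benjamini-Hochberg adjusted p = 0.0097; lost without 3 h a, 3 h b or 6 h a) and at 6 h over 1 h (-1.31 ± 0.17, edgeR, Benjamini-Hochberg adjusted p = 0.0019). A second CIR1 gene (Sobic.004G279300) was between 0.100 and 2.04 CPM, and its fall at 6 h over 1 h (-2.41 ± 0.60, edgeR, Benjamini-Hochberg adjusted p = 0.037) was lost without 6 of the 9 libraries in turn. RVE1 (Sobic.006G192100) and the 3 genes matched to AT5G52660 had no call in any comparison, with 6 h over 1 h log2 fold changes of 0.71, -0.46, -0.31 and -0.05.

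PRR7 (Sobic.001G411400), whose Arabidopsis counterpart peaks in the morning, was at 165, 230.1 and 188 CPM at 1 h, 259.5, 233 and 223 CPM at 3 h, and 259, 293 and 289 CPM at 6 h. The groups overlapped at 1 and 3 h, and 6 h was above 1 h. Its rise at 6 h over 1 h (0.53 ± 0.14, edgeR, Benjamini-Hochberg adjusted p = 0.044) was lost without 8 of the 9 libraries in turn.

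PRR5 (Sobic.002G275100), a midday to afternoon repressor of LHY, was at 7.14, 12.3 and 12.5 CPM at 1 h, 51.6, 38.8 and 44.2 CPM at 3 h, and 90.5, 104 and 117 CPM at 6 h. The groups did not overlap, and each later one was higher. It rose at 3 h over 1 h (2.07 ± 0.22, edgeR, Benjamini-Hochberg adjusted p = 0.0033) and at 6 h over 1 h (3.28 ± 0.23, edgeR, Benjamini-Hochberg adjusted p = 6.8e-05); its call at 6 h over 3 h (1.21 ± 0.21, edgeR, Benjamini-Hochberg adjusted p = 0.035) was lost without 7 of the 9 libraries in turn. A second PRR5 gene (Sobic.005G044400) was at 17.6, 25.0 and 24.4 CPM at 1 h, 49.9, 37.3 and 38.7 CPM at 3 h, and 75.3, 71.2 and 93.1 CPM at 6 h, likewise without overlap. It rose at 6 h over 1 h (1.84 ± 0.18, edgeR, Benjamini-Hochberg adjusted p = 4.9e-04).

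GI (Sobic.003G040900), a scaffold that stabilises clock F-box proteins, was at 77.6, 87.3 and 93.6 CPM at 1 h, 233, 213 and 206 CPM at 3 h, and 677, 520.2 and 664 CPM at 6 h. Each later group lay above the one before it with no overlap. It rose at 3 h over 1 h (1.33 ± 0.14, edgeR, Benjamini-Hochberg adjusted p = 0.0033), at 6 h over 3 h (1.51 ± 0.14, edgeR, Benjamini-Hochberg adjusted p = 8.6e-04) and over the whole span (2.85 ± 0.14, edgeR, Benjamini-Hochberg adjusted p = 7.2e-06).

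FKF1 (ADO3, Sobic.005G145300), the blue light F-box protein that binds GI, was at 0.273, 0.176 and 0.162 CPM at 1 h, 1.33, 1.61 and 0.523 CPM at 3 h, and 13.1, 14.9 and 15.8 CPM at 6 h. The groups did not overlap, and each later one was higher. FKF1 rose at 6 h over 3 h (3.67 ± 0.37, edgeR, Benjamini-Hochberg adjusted p = 0.0017) and at 6 h over 1 h (6.14 ± 0.44, edgeR, Benjamini-Hochberg adjusted p = 7.7e-05), and its rise at 3 h over 1 h (2.47 ± 0.44, edgeR, Benjamini-Hochberg adjusted p = 0.021) was lost without 1 h b, 1 h d, 3 h a or 3 h b.

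TOC1 (APRR1, Sobic.004G216700), the evening member of the PRR family, was at 5.81, 8.03 and 9.06 CPM at 1 h, 7.63, 5.56 and 5.70 CPM at 3 h, and 27.3, 24.8 and 32.9 CPM at 6 h. The 1 h and 3 h libraries overlapped, and all 6 h libraries were above them. TOC1 rose at 6 h over 3 h (2.17 ± 0.22, edgeR, Benjamini-Hochberg adjusted p = 0.0015). At 3 h over 1 h its fold change of -0.28 ± 0.21 did not pass the test (edgeR, Benjamini-Hochberg adjusted p = 0.50).

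A rise in the last step was also seen at the locus of JMJ30 (AT3G20810), a histone demethylase tied to the clock. Sobic.007G210801 was at 0.752, 0.882 and 0.582 CPM at 1 h, 0.704, 0.564 and 0.739 CPM at 3 h, and 7.98, 6.77 and 9.89 CPM at 6 h, with 1 and 3 h overlapping and 6 h above both, and rose at 6 h over 3 h (3.61 ± 0.30, edgeR, Benjamini-Hochberg adjusted p = 6.2e-04). The other gene matched there, Sobic.002G247200, was at 2.39, 1.88 and 2.43 CPM at 1 h, 1.88, 1.09 and 1.05 CPM at 3 h, and 7.62, 7.51 and 4.98 CPM at 6 h, and rose at 6 h over 1 h (1.58 ± 0.31, edgeR, Benjamini-Hochberg adjusted p = 0.013; lost without 6 h a).

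The evening complex, in which LUX, ELF3 and ELF4 repress clock genes at dusk, had a call at ELF4-L4 and at no other of its genes tested here. LUX (Sobic.003G353700) was at 10.5, 12.6 and 12.2 CPM at 1 h, 11.3, 10.7 and 12.2 CPM at 3 h, and 10.02, 15.3 and 10.7 CPM at 6 h, with its groups overlapping throughout (6 h over 1 h 0.03 ± 0.19, edgeR, Benjamini-Hochberg adjusted p = 0.95). The ELF3 genes Sobic.003G191700 and Sobic.009G257300 had fold changes of 0.05 ± 0.15 and 0.49 ± 0.15 at 6 h over 1 h, with edgeR, Benjamini-Hochberg adjusted p of 0.87 and 0.073. ELF4-L4 (Sobic.001G340700) was at 10.8, 9.58 and 10.2 CPM at 1 h, 14.6, 12.5 and 13.5 CPM at 3 h, and 15.9, 23.4 and 19.9 CPM at 6 h. ELF4-L4 rose at 6 h over 1 h (0.95 ± 0.17, edgeR, Benjamini-Hochberg adjusted p = 0.0089). ELF4-L2, ELF4-L3 and the ZTL genes (ADO1, F-box proteins that turn over TOC1 protein) had no call.

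**Figure D3:**
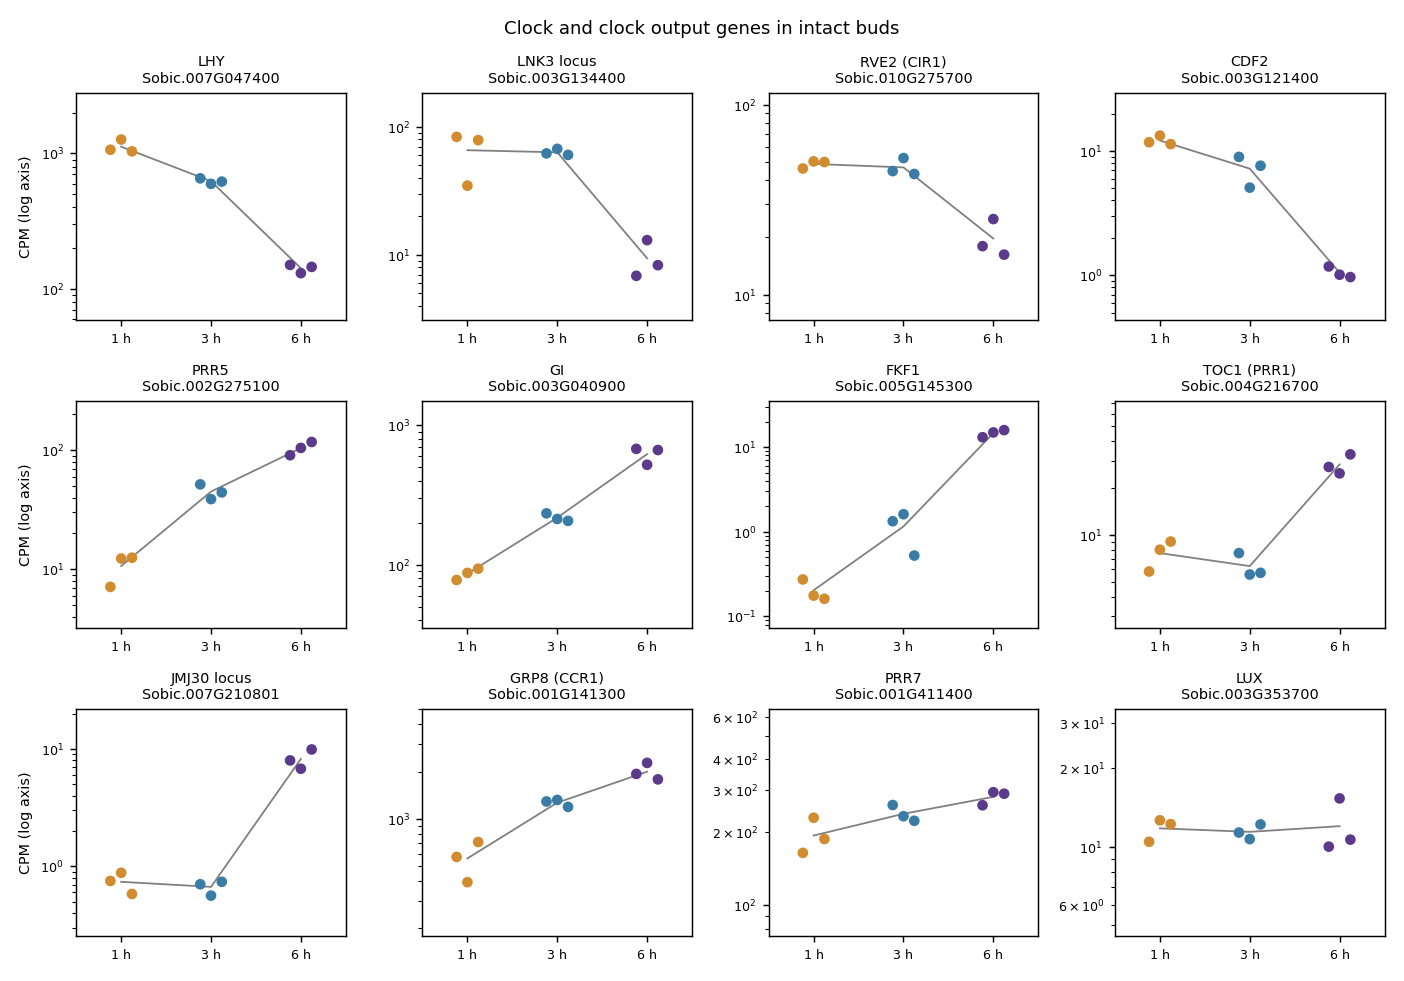
CPM (log axis) of 12 clock and clock output genes in each intact library at 1, 3 and 6 h, with a line through the means. LHY, the LNK3 locus, CIR1 and CDF2 are lowest at 6 h, PRR5, GI, FKF1, TOC1, the JMJ30 locus and GRP8 are highest there, and the groups of LUX overlap.

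Of genes driven by the clock, CDF2 (Sobic.003G121400), a DOF repressor of flowering genes that FKF1 and GI mark for decay, was at 11.8, 13.3 and 11.4 CPM at 1 h, 8.96, 5.07 and 7.61 CPM at 3 h, and 1.18, 1.01 and 0.969 CPM at 6 h. The groups did not overlap, with 6 h lowest. CDF2 fell at 6 h over 3 h (-2.78 ± 0.26, edgeR, Benjamini-Hochberg adjusted p = 8.9e-04) and at 6 h over 1 h (-3.53 ± 0.26, edgeR, Benjamini-Hochberg adjusted p = 9.4e-05).

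The RNA-binding proteins GRP8 (CCR1, Sobic.001G141300) and GRP7 (CCR2, Sobic.008G185900), which form a slave oscillator under the clock, both rose. GRP8 was at 571, 394 and 711 CPM at 1 h, 1289.6, 1319.6 and 1191 CPM at 3 h, and 1933, 2273 and 1784 CPM at 6 h, with no overlap between times. GRP8 rose at 6 h over 1 h (1.84 ± 0.20, edgeR, Benjamini-Hochberg adjusted p = 8.4e-04), and its rise at 3 h over 1 h (1.18 ± 0.20, edgeR, Benjamini-Hochberg adjusted p = 0.018) was lost without 1 h b, 3 h a, 3 h b or 3 h c. GRP7 rose at 6 h over 1 h (1.90 ± 0.28, edgeR, Benjamini-Hochberg adjusted p = 0.004). CCL (Sobic.003G107300, CCR-like) was at 6.53, 8.995 and 8.67 CPM at 1 h, 51.2, 29.6 and 26.7 CPM at 3 h, and 62.2, 141 and 72.2 CPM at 6 h. CCL rose at 6 h over 1 h (3.51 ± 0.36, edgeR, Benjamini-Hochberg adjusted p = 5.8e-04). Among 20 tested genes of the clock output list 3 rose and 2 fell at 6 h over 1 h. The shares over all tested genes were 4.19% and 3.96%.

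The same time steps were compared between intact and leaf-removed buds in a fit of all 18 libraries, where the difference of the 2 time changes was called in 26.6% of 21852 genes at 3 h over 1 h, 3.25% at 6 h over 3 h and 38.1% at 6 h over 1 h. The 710 differences at 6 h over 3 h became 450 without intact 3 h c, 447 to 464 without leaf-removed 3 h c, 3 h d, 6 h b or 6 h d, and 1073 without leaf-removed 3 h b. Of the 721 genes called in intact buds at 3 h over 1 h, 492 (68.2%) had a called difference at that step. Another 148 had no called difference and were called in leaf-removed buds with the same sign. Of the 124 genes called in intact buds at 6 h over 3 h, 23 (18.5%) had a called difference. These genes were picked by their intact change, which is part of the difference, so these shares cannot be set against those of all genes. LHY had fold changes of -0.85 in intact buds and -0.76 in leaf-removed buds at 3 h over 1 h, a difference of -0.08 ± 0.18, edgeR, Benjamini-Hochberg adjusted p = 0.78. For 6 h over 3 h they were -2.12 in intact buds and -2.07 in leaf-removed buds, a difference of -0.05 ± 0.18, edgeR, Benjamini-Hochberg adjusted p = 0.93. Neither difference passed the test, which does not show that the LHY courses were alike.

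GI had the larger 3 h over 1 h fold change in intact buds, with 1.33 in intact buds and 0.50 in leaf-removed buds as the log2 values, a difference of 0.84 ± 0.16, edgeR, Benjamini-Hochberg adjusted p = 9.4e-04. Its means in that fit were 80.7, 204 and 583 CPM in intact buds at 1, 3 and 6 h, and 76.8, 109 and 351 CPM in leaf-removed buds. At 6 h over 3 h the GI values were 1.52 in intact buds and 1.69 in leaf-removed buds, a difference of -0.18 ± 0.16, edgeR, Benjamini-Hochberg adjusted p = 0.62. PRR5 (Sobic.002G275100) had values of 2.07 in intact buds and 0.28 in leaf-removed buds at 3 h over 1 h (difference 1.79 ± 0.30, edgeR, Benjamini-Hochberg adjusted p = 3.7e-04), and 1.22 in intact buds and 1.495 in leaf-removed buds at 6 h over 3 h (difference -0.28 ± 0.29, edgeR, Benjamini-Hochberg adjusted p = 0.68). No clock gene of either list had a called difference at 6 h over 3 h.

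Other clock genes differed in the first step with leaf-removed means that were high at 1 h. ELF3 (Sobic.009G257300) had means of 22.1, 25.7 and 31.2 CPM in intact buds at 1, 3 and 6 h, and 62.1, 24.5 and 23.7 CPM in leaf-removed buds, and its 3 h over 1 h changes differed by 1.56 ± 0.22, edgeR, Benjamini-Hochberg adjusted p = 7.6e-05. CIR1 (Sobic.010G275700) had means of 45.7, 43.8 and 18.6 CPM in intact buds at 1, 3 and 6 h, and 120.4, 67.3 and 26.6 CPM in leaf-removed buds, with a difference of 0.78 ± 0.20, edgeR, Benjamini-Hochberg adjusted p = 0.0095, lost without intact 3 h b or leaf-removed 1 h c. TOC1 had means of 7.15, 5.90 and 26.7 CPM in intact buds at 1, 3 and 6 h, and 22.9, 10.6 and 50.1 CPM in leaf-removed buds, with a difference of 0.82 ± 0.28, edgeR, Benjamini-Hochberg adjusted p = 0.039, lost without 12 of the 18 libraries in turn.

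THI1 and THIC, named for their rank among the rises, were among the highest rises in intact buds. Genes were named by rank only if their groups did not overlap in that comparison, so there the separation is not a separate result. No list of thiamine genes was made, so the other genes of that pathway were not counted. THI1 makes the thiazole part of thiamine, a B vitamin, and THIC the pyrimidine part. THI1 (Sobic.003G191000) was at 0.273, 0.206 and 0.291 CPM at 1 h, 2.94, 3.06 and 2.43 CPM at 3 h, and 163, 276 and 132 CPM at 6 h. The groups did not overlap, and each later one was higher. THI1 rose at 3 h over 1 h (3.43 ± 0.38, edgeR, Benjamini-Hochberg adjusted p = 0.0036), at 6 h over 3 h (6.09 ± 0.30, edgeR, Benjamini-Hochberg adjusted p = 2.0e-05) and at 6 h over 1 h (9.52 ± 0.37, edgeR, Benjamini-Hochberg adjusted p = 1.0e-06), on 24, 230 and 14662 reads summed over the libraries of each time.

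A second THI1 gene (Sobic.002G384400) had 2 reads in all 1 h libraries together, 13 at 3 h and 903 at 6 h, and rose at 6 h over 3 h (edgeR, Benjamini-Hochberg adjusted p = 0.003). THIC (Sobic.001G138000) was at 6.08, 8.14 and 5.37 CPM at 1 h, 9.27, 8.66 and 9.85 CPM at 3 h, and 44.7, 42.8 and 53.4 CPM at 6 h. The 6 h libraries were far above the rest, and THIC rose at 6 h over 3 h (2.34 ± 0.18, edgeR, Benjamini-Hochberg adjusted p = 5.0e-04) and at 6 h over 1 h (2.84 ± 0.18, edgeR, Benjamini-Hochberg adjusted p = 5.1e-05).

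Other genes among the highest rises rose in the last step. MEE59 (Sobic.001G426400), named for embryo arrest, was at 1.64, 1.15 and 0.970 CPM at 1 h, 1.10, 1.37 and 1.11 CPM at 3 h, and 10.5, 19.4 and 13.7 CPM at 6 h, with 1 and 3 h overlapping and 6 h above both. MEE59 rose at 6 h over 3 h (3.61 ± 0.31, edgeR, Benjamini-Hochberg adjusted p = 6.5e-04). The terpene synthase TPS14 (Sobic.004G019300) was at 2.67, 5.06 and 4.01 CPM at 1 h, 4.38, 5.64 and 6.53 CPM at 3 h, and 25.3, 21.4 and 21.2 CPM at 6 h. TPS14 rose at 6 h over 3 h (2.03 ± 0.25, edgeR, Benjamini-Hochberg adjusted p = 0.0056). The vacuolar aquaporin TIP4;1 (Sobic.009G085900) rose at 6 h over 1 h (2.76 ± 0.44, edgeR, Benjamini-Hochberg adjusted p = 0.0054).

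CBF factors, which switch on cold-response genes and are gated by the clock, also rose. CBF3 (Sobic.002G269300) was at 0.889, 0.235 and 1.84 CPM at 1 h, 3.25, 2.42 and 5.45 CPM at 3 h, and 18.4, 21.3 and 17.1 CPM at 6 h. The 6 h libraries were well above both earlier groups, which did not overlap each other. CBF3 rose at 6 h over 1 h (4.26 ± 0.56, edgeR, Benjamini-Hochberg adjusted p = 0.0021), as did CBF2 (Sobic.002G269400; 2.60 ± 0.40, edgeR, Benjamini-Hochberg adjusted p = 0.0051). The cold and temperature list had 16 tested members, of which 6 rose and 0 fell at 6 h over 1 h (edgeR, with 3 at an unadjusted p under 0.05, 0 by DESeq2 and 0 by limma voom). In the fit without 1 h c and 6 h d, 7 rose and 1 fell. With all 9 libraries the shares over all tested genes were 4.19% rising and 3.96% falling.

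Heat shock proteins, chaperones that hold or refold other proteins, fell more often than they rose. Of 150 tested members of the heat shock list 4 rose and 12 fell at 3 h over 1 h, 1 rose and 8 fell at 6 h over 3 h, and 8 rose and 32 fell at 6 h over 1 h, with medians of -0.13, -0.11 and -0.22. Over all tested genes 1.64% rose and 1.86% fell at 3 h over 1 h. At 6 h over 3 h the shares were 0.384% and 0.218%, and at 6 h over 1 h 4.19% and 3.96%. Families inside lists, here and for phosphate, replication and mitosis genes below, were picked by title words after the values were seen. By family at 6 h over 1 h 7 of 31 small heat shock proteins, 7 of 16 HSP70, 7 of 9 HSP90 and HSP101, and 2 of 3 HSP60 genes fell, against 3.96% of all tested genes. The largest family, with 61 DnaJ cochaperones, moved both ways, as 3 rose and 6 fell. Of the 15 heat shock transcription factors, which drive chaperone genes, 5 rose and 1 fell. When 1 h c and 6 h d were left out, the whole list had 8 rises and 39 falls of 152 tested at 6 h over 1 h, 6 and 20 at 3 h over 1 h, and 2 and 17 at 6 h over 3 h. Over all 20658 genes of that fit there were 1095 rises and 1187 falls, 641 and 893, and 423 and 366, in the same order.

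HSP17.6II (Sobic.003G039400), a cytosolic small heat shock protein, was at 243, 76.5 and 199 CPM at 1 h, 34.3, 33.1 and 24.7 CPM at 3 h, and 1.95, 1.52 and 1.54 CPM at 6 h. The groups did not overlap, and 1 h c was the lowest of the 1 h libraries. It fell at 6 h over 3 h (-4.21 ± 0.41, edgeR, Benjamini-Hochberg adjusted p = 0.0014) and at 6 h over 1 h (-6.70 ± 0.44, edgeR, Benjamini-Hochberg adjusted p = 5.6e-05), and its fall at 3 h over 1 h (-2.49 ± 0.35, edgeR, Benjamini-Hochberg adjusted p = 0.0097) was lost without 3 h a, 3 h b or 3 h c.

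FKBP65 (Sobic.010G134700), a heat-induced peptidyl-prolyl isomerase, was at 66.1, 78.0 and 75.2 CPM at 1 h, 34.5, 32.0 and 29.0 CPM at 3 h, and 6.12, 6.35 and 6.42 CPM at 6 h. Replicates were close and each later group was lower. FKBP65 fell at 3 h over 1 h (-1.20 ± 0.12, edgeR, Benjamini-Hochberg adjusted p = 0.0033), at 6 h over 3 h (-2.34 ± 0.13, edgeR, Benjamini-Hochberg adjusted p = 3.7e-05) and at 6 h over 1 h (-3.54 ± 0.13, edgeR, Benjamini-Hochberg adjusted p = 1.0e-06).

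An HSP20-like chaperone (Sobic.004G228900) fell at 6 h over 1 h (-4.55 ± 0.37, edgeR, Benjamini-Hochberg adjusted p = 2.1e-04), and so did HSP70 (Sobic.009G163900; -2.51 ± 0.40, edgeR, Benjamini-Hochberg adjusted p = 0.0054) and the endoplasmic reticulum cochaperone ERDJ3B (Sobic.009G051700; -1.18 ± 0.11, edgeR, Benjamini-Hochberg adjusted p = 3.7e-04). The factor HSFA7A (Sobic.010G170600) went the other way, at 1.504, 0.470 and 0.776 CPM at 1 h, 2.97, 4.07 and 3.69 CPM at 3 h, and 13.1, 17.9 and 7.95 CPM at 6 h. The groups were separate and each later one was higher. HSFA7A rose at 6 h over 1 h (3.83 ± 0.44, edgeR, Benjamini-Hochberg adjusted p = 0.001).

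Among genes outside the lists, MIPS2 (Sobic.001G472800), which makes inositol phosphate from glucose phosphate, was at 929, 619 and 812 CPM at 1 h, 511, 571 and 461 CPM at 3 h, and 129.6, 129 and 90.2 CPM at 6 h. The 6 h libraries were the lowest by far, and the fall at 6 h over 3 h was -2.15 ± 0.19, edgeR, Benjamini-Hochberg adjusted p = 8.6e-04. The phospholipase A 2A genes Sobic.005G186100 and Sobic.005G186200, patatin-like lipid hydrolases, fell in the first step. The first was at 119.6, 122 and 116 CPM at 1 h, 11.3, 8.70 and 9.27 CPM at 3 h, and 14.8, 7.48 and 4.91 CPM at 6 h, with all 3 h and 6 h libraries far below 1 h. It fell at 3 h over 1 h (-3.61 ± 0.33, edgeR, Benjamini-Hochberg adjusted p = 0.0024) and had a fold change of -0.12 ± 0.32, edgeR, Benjamini-Hochberg adjusted p = 0.97 at 6 h over 3 h. The second fell at 3 h over 1 h (-2.59 ± 0.27, edgeR, Benjamini-Hochberg adjusted p = 0.0033).

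ELIP (Sobic.002G052000), an early light-induced protein of chloroplasts, was at 53.9, 18.4 and 68.0 CPM at 1 h, 47.0, 58.5 and 46.2 CPM at 3 h, and 11.7, 14.1 and 7.85 CPM at 6 h. The 6 h libraries were below all others, and the 1 h and 3 h libraries overlapped around the low 1 h c. It fell at 6 h over 1 h (-2.06 ± 0.41, edgeR, Benjamini-Hochberg adjusted p = 0.014; lost without 6 h a). The splicing factor SRP30 (ATSRP30, Sobic.003G149800) fell at 6 h over 3 h (-1.19 ± 0.15, edgeR, Benjamini-Hochberg adjusted p = 0.0068).

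Called genes of the phosphate starvation response mostly rose. Of 59 tested members of that list, 12 rose and 1 fell at 3 h over 1 h (median 0.25), and 9 rose and 3 fell at 6 h over 1 h (median 0.28), against 1.64% and 4.19% of all tested genes that rose. DESeq2 called 16 rises and 3 falls in each of these comparisons. The mean was highest at 3 h in 25 of the 59, at 1 h in 17 and at 6 h in 17, against 5612, 8130 and 6855 of all 20597 tested genes. In that first step 5 of 25 purple acid phosphatases and 3 of 10 genes with an SPX domain rose, while 1 of 14 phosphate transporters fell. Without 1 h c and 6 h d 18 members rose and 2 fell at that step, against 641 and 893 of all 20658 genes.

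PS3 (Sobic.006G173000), named for its induction by phosphate starvation, was at 2.97, 3.15 and 3.62 CPM at 1 h, 25.5, 28.4 and 29.5 CPM at 3 h, and 13.7, 22.1 and 7.22 CPM at 6 h. All 3 h libraries were the highest, and 6 h lay between 3 h and 1 h. PS3 rose at 3 h over 1 h (3.10 ± 0.34, edgeR, Benjamini-Hochberg adjusted p = 0.0036) and at 6 h over 1 h (2.14 ± 0.34, edgeR, Benjamini-Hochberg adjusted p = 0.0053). The step at 6 h over 3 h was -0.96 ± 0.32, edgeR, Benjamini-Hochberg adjusted p = 0.41.

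PAP3 (Sobic.001G442300), an acid phosphatase, had the same shape at 2.84, 3.88 and 2.75 CPM at 1 h, 28.0, 27.3 and 23.5 CPM at 3 h, and 11.9, 22.4 and 7.82 CPM at 6 h. It rose at 3 h over 1 h (3.05 ± 0.35, edgeR, Benjamini-Hochberg adjusted p = 0.0042). SPX1 (Sobic.010G185200), a sensor that restrains the phosphate starvation response, was at 12.8, 12.9 and 15.4 CPM at 1 h, 31.8, 33.1 and 35.2 CPM at 3 h, and 24.2, 25.7 and 24.9 CPM at 6 h, with the 3 groups apart. SPX1 rose at 3 h over 1 h (1.28 ± 0.13, edgeR, Benjamini-Hochberg adjusted p = 0.0033) and at 6 h over 1 h (0.86 ± 0.13, edgeR, Benjamini-Hochberg adjusted p = 0.004). SQD2 (Sobic.003G076900), which makes sulfolipid in place of phospholipid, was at 4.20, 3.998 and 2.94 CPM at 1 h, 12.8, 13.7 and 19.2 CPM at 3 h, and 5.53, 8.92 and 5.91 CPM at 6 h. SQD2 rose at 3 h over 1 h (2.04 ± 0.26, edgeR, Benjamini-Hochberg adjusted p = 0.0072). The 6 h over 1 h value was 0.87 ± 0.26, edgeR, Benjamini-Hochberg adjusted p = 0.066.

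**Figure D4:**
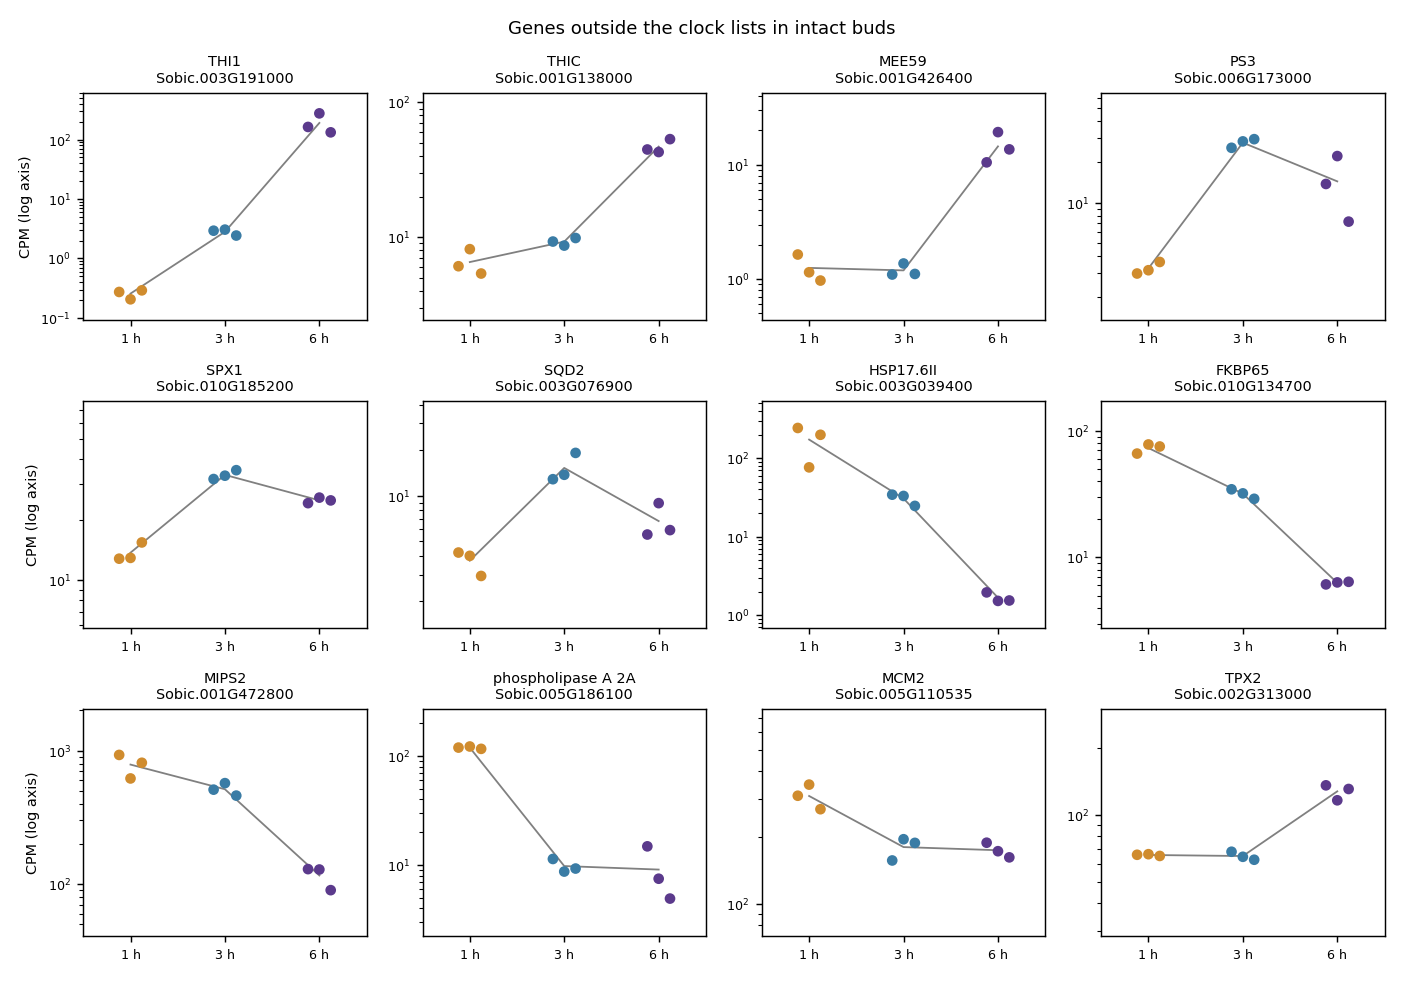
CPM (log axis) of 12 genes outside the clock lists in each intact library at 1, 3 and 6 h, with a line through the means. THI1, THIC, MEE59 and TPX2 are highest at 6 h, PS3, SPX1 and SQD2 at 3 h, and HSP17.6II, FKBP65, MIPS2, phospholipase A 2A and MCM2 at 1 h.

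Some DNA replication genes fell, with 7 of 49 tested falling at 3 h over 1 h and 9 at 6 h over 1 h, and 0 rising at 6 h over 1 h (edgeR, with 0 at an unadjusted p under 0.05, 0 by DESeq2 and 0 by limma voom). Some mitosis and cytokinesis genes rose, with 1 of 46 rising at 3 h over 1 h, 3 at 6 h over 3 h and 7 at 6 h over 1 h, and 0 falling at 6 h over 1 h (edgeR, with 2 at an unadjusted p under 0.05, 1 by DESeq2 and 0 by limma voom). Of all tested genes 3.96% fell and 4.19% rose at 6 h over 1 h, and 1.86% and 1.64% at 3 h over 1 h. At 6 h over 3 h 0.384% rose. The 1 that rose at 3 h over 1 h was the cyclin CYCA3;1 (Sobic.001G169800), chosen after its values were seen, at 0.61 ± 0.12 (edgeR, Benjamini-Hochberg adjusted p = 0.029), a call lost without 6 of the 9 libraries in turn. With 1 h c and 6 h d left out, 8 mitosis genes of 47 rose and 1 fell at 6 h over 3 h, and 11 rose and 1 fell at 6 h over 1 h. Over all 20658 genes of that fit 423 rose and 366 fell at 6 h over 3 h. At 6 h over 1 h 1095 rose and 1187 fell. With all 9 libraries the medians at 6 h over 1 h were -0.23 for replication and 0.28 for mitosis.

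MCM2 to MCM7 form the helicase that opens DNA for replication. MCM2 (Sobic.005G110535) was at 309, 348 and 269 CPM at 1 h, 157, 196 and 189 CPM at 3 h, and 189, 173 and 162 CPM at 6 h. All 1 h libraries lay above all later ones, and 3 h and 6 h overlapped. It fell at 6 h over 1 h (-0.82 ± 0.14, edgeR, Benjamini-Hochberg adjusted p = 0.0067), and its fall at 3 h over 1 h (-0.77 ± 0.14, edgeR, Benjamini-Hochberg adjusted p = 0.02) was lost without 1 h b, 3 h a, 3 h b or 3 h c. MCM4 (Sobic.003G183700) fell at 6 h over 1 h (-0.89 ± 0.15, edgeR, Benjamini-Hochberg adjusted p = 0.0063), as did the large subunit of DNA primase (Sobic.006G051000; -1.07 ± 0.16, edgeR, Benjamini-Hochberg adjusted p = 0.0048). In all, 5 of 12 tested MCM genes fell at each of these 2 comparisons.

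TPX2 (Sobic.002G313000), which nucleates the mitotic spindle and is not in the mitosis list, was at 66.1, 66.5 and 65.3 CPM at 1 h, 68.2, 64.7 and 62.8 CPM at 3 h, and 136, 116 and 131 CPM at 6 h. The 1 h and 3 h libraries overlapped, and all 6 h libraries were far above them. TPX2 rose at 6 h over 3 h (0.97 ± 0.10, edgeR, Benjamini-Hochberg adjusted p = 0.0027) and at 6 h over 1 h (0.95 ± 0.10, edgeR, Benjamini-Hochberg adjusted p = 8.4e-04).

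The mitotic cyclin CYC1BAT (Sobic.003G328500), also outside the list, was at 125, 99.9 and 133 CPM at 1 h, 110.0, 118 and 114 CPM at 3 h, and 242, 199.7 and 216 CPM at 6 h. CYC1BAT rose at 6 h over 1 h (0.88 ± 0.13, edgeR, Benjamini-Hochberg adjusted p = 0.0043). CYCB2;4 (Sobic.006G179200; 0.68 ± 0.12, edgeR, Benjamini-Hochberg adjusted p = 0.0096) and the aurora kinase AUR1 (Sobic.004G216200; 0.80 ± 0.14, edgeR, Benjamini-Hochberg adjusted p = 0.0079) rose at 6 h over 1 h too. Of 4 aurora kinases 3 rose, and of 15 kinesins, motors that move along spindle microtubules, 3 rose. Of the 10 tested cyclins of the list 1 rose. These counts are at 6 h over 1 h, where 4.19% of all tested genes rose.

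Histone genes had mostly positive fold changes at the later times, and most of them were not called. All 51 tested had a positive fold change at 6 h over 1 h, with a median of 0.91, and 8 rose, against 4.19% of all tested genes. For 3 h over 1 h 47 were positive, with a median of 0.83, and 2 rose, against 1.64% of all tested genes. The summed level of the list was 2746 CPM in 1 h c against 6616 and 6831 CPM in the other 1 h libraries, and 6408 CPM in 6 h d against 10553 and 12584 CPM in the other 6 h libraries. In the fit without 1 h c and 6 h d, 19 of 52 rose at 3 h over 1 h and 35 at 6 h over 1 h. Over all 20658 genes of that fit 641 and 1095 rose.

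The linker histone HIS1-3 (Sobic.006G186700) was at 116, 51.7 and 133 CPM at 1 h, 323, 360.0 and 387 CPM at 3 h, and 294, 395 and 250.1 CPM at 6 h. The 1 h libraries were lowest, with 1 h c below the other 1 h libraries, and 3 h and 6 h overlapped. HIS1-3 rose at 6 h over 1 h (1.64 ± 0.30, edgeR, Benjamini-Hochberg adjusted p = 0.011), and its rise at 3 h over 1 h (1.83 ± 0.31, edgeR, Benjamini-Hochberg adjusted p = 0.018) was lost without 1 h b, 3 h a, 3 h b or 3 h c. H2B (Sobic.007G149600), which also had its lowest value in 1 h c, rose at 6 h over 1 h (1.24 ± 0.32, edgeR, Benjamini-Hochberg adjusted p = 0.041), a call lost without 7 of the 9 libraries in turn. The DNA methyltransferase CMT3 (Sobic.006G214000), which acts on histone-marked DNA, was at 86.8, 88.2 and 106 CPM at 1 h, 172, 173 and 198 CPM at 3 h, and 187, 186 and 146 CPM at 6 h. CMT3 rose at 6 h over 1 h (0.89 ± 0.14, edgeR, Benjamini-Hochberg adjusted p = 0.0052).

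Some ribosome genes fell in the first step. Of 280 cytosolic ribosomal proteins 1 rose and 15 fell at 3 h over 1 h, with a median of -0.12, against 1.64% and 1.86% of all tested genes. Over the whole span 13 fell and 0 rose (edgeR, with 17 at an unadjusted p under 0.05, 4 by DESeq2 and 0 by limma voom), a share of falls near the 3.96% of all tested genes. Of 41 ribosome biogenesis genes 7 fell at 3 h over 1 h and 2 rose and 7 fell at 6 h over 1 h. When 1 h c and 6 h d were left out, 4 ribosomal protein genes of 278 rose and 49 fell at 3 h over 1 h, and 2 rose and 15 fell at 6 h over 1 h. Over all 20658 genes of that fit 641 rose and 893 fell at 3 h over 1 h. At 6 h over 1 h 1095 rose and 1187 fell.

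A Ribosomal protein L36e gene (Sobic.003G351000) was at 119.6, 107 and 91.5 CPM at 1 h, 32.6, 41.7 and 40.9 CPM at 3 h, and 47.0, 46.3 and 38.4 CPM at 6 h. The later groups overlapped each other and lay far below 1 h. It fell at 3 h over 1 h (-1.46 ± 0.15, edgeR, Benjamini-Hochberg adjusted p = 0.0033) and at 6 h over 1 h (-1.27 ± 0.15, edgeR, Benjamini-Hochberg adjusted p = 0.0012). EMB1080 (Sobic.004G213200), titled a nucleic acid-binding OB-fold protein, fell by 1.61 on the log2 scale at 3 h over 1 h (SE 0.18, edgeR, Benjamini-Hochberg adjusted p = 0.0036). An rRNA processing gene (Sobic.002G300300; -1.05 ± 0.15, edgeR, Benjamini-Hochberg adjusted p = 0.012) fell at 3 h over 1 h, a call lost without 3 h a or 3 h b.

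Most photosystem and light-harvesting genes had their highest mean at 3 h. Of 64 tested photosystem and light-harvesting genes 55 had a positive fold change at 3 h over 1 h, with a median of 0.74, and 6 rose. Over all 20597 tested genes 10348 were positive and 1.64% rose at 3 h over 1 h. Without 1 h c and 6 h d 13 of 63 rose at that step, where 641 of all 20658 genes rose. DESeq2 on all 9 libraries called 23 rises in the list and 908 over all genes. Over the whole span 4 rose and 2 fell, with a median of 0.53, against 4.19% and 3.96% of all tested genes. The mean was highest at 3 h in 44 of the 64, against 5612 of all 20597 tested genes. ELIP is one of those that fell. The summed level of the list was 2630 CPM in 1 h c against 5010 and 5960 CPM in the other 1 h libraries. A photosystem II reaction center gene (Sobic.007G207800) was at 1.74, 3.23 and 1.71 CPM at 1 h, 8.18, 7.93 and 4.50 CPM at 3 h, and 6.07, 7.59 and 11.8 CPM at 6 h, with 1 h below both later times, which overlapped. It rose at 6 h over 1 h (1.92 ± 0.37, edgeR, Benjamini-Hochberg adjusted p = 0.012).

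In pigment synthesis, the magnesium chelatase subunit ABAR (Sobic.006G264900), at the start of the chlorophyll branch, rose at 3 h over 1 h (1.07 ± 0.19, edgeR, Benjamini-Hochberg adjusted p = 0.019), a call lost without 1 h b, 3 h a or 3 h b. Lycopene cyclase LUT2 (Sobic.003G197400) was at 25.8, 31.2 and 28.8 CPM at 1 h, 54.3, 51.8 and 52.1 CPM at 3 h, and 41.2, 44.4 and 54.7 CPM at 6 h. LUT2 rose at 6 h over 1 h (0.71 ± 0.14, edgeR, Benjamini-Hochberg adjusted p = 0.013). Of 48 Calvin cycle and C4 enzymes 2 fell and 0 rose at 6 h over 1 h (edgeR, with 1 at an unadjusted p under 0.05, 0 by DESeq2 and 0 by limma voom). With 1 h c and 6 h d left out, 1 rose and 4 fell. With all 9 libraries 4.19% of all tested genes rose and 3.96% fell. The NADP-malic enzyme NADP-ME4 (Sobic.003G036000) was at 305, 291 and 364 CPM at 1 h, 212, 208 and 200.1 CPM at 3 h, and 200.1, 165 and 189 CPM at 6 h, with all 1 h libraries highest. NADP-ME4 fell at 6 h over 1 h (-0.79 ± 0.12, edgeR, Benjamini-Hochberg adjusted p = 0.0053).

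Sugar genes moved both ways. Of 40 starch genes 3 rose and 3 fell at 6 h over 1 h, and of 64 sucrose and trehalose genes 7 rose and 2 fell. The shares over all tested genes were 4.19% and 3.96%. BAM5 (Sobic.002G329500), a beta-amylase, was at 46.0, 43.9 and 43.7 CPM at 1 h, 93.8, 81.4 and 78.9 CPM at 3 h, and 59.9, 77.3 and 69.9 CPM at 6 h, with 1 h lowest and 3 h highest. BAM5 rose at 6 h over 1 h (0.63 ± 0.13, edgeR, Benjamini-Hochberg adjusted p = 0.015). Starch synthase SS3 (Sobic.007G068200) fell at 6 h over 1 h (-0.79 ± 0.12, edgeR, Benjamini-Hochberg adjusted p = 0.0051). The sucrose transporter SUC4 (Sobic.008G193300) rose (0.78 ± 0.14, edgeR, Benjamini-Hochberg adjusted p = 0.01), and the cell wall invertase CWINV2 (Sobic.004G166700), which splits sucrose outside the cell, fell (-1.47 ± 0.25, edgeR, Benjamini-Hochberg adjusted p = 0.0076).

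ASN1 (Sobic.001G406800), an asparagine synthetase induced by low sugar, was at 68.6, 31.1 and 119.7 CPM at 1 h, 259, 289.7 and 274 CPM at 3 h, and 176, 249 and 165 CPM at 6 h. The 1 h libraries were lowest and spread widely, from 1 h c up to 1 h d. Its rise at 6 h over 1 h (1.43 ± 0.38, edgeR, Benjamini-Hochberg adjusted p = 0.045; 84.6% of its reads unique) was lost without 7 of the 9 libraries in turn. GLT1 (Sobic.003G258800), the NADH-dependent glutamate synthase, was at 319, 435 and 419 CPM at 1 h, 227, 206 and 225 CPM at 3 h, and 192, 190.4 and 189 CPM at 6 h, with 1 h above all later libraries. GLT1 fell at 6 h over 1 h (-1.04 ± 0.13, edgeR, Benjamini-Hochberg adjusted p = 0.0017).

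Some genes tied to bud dormancy rose in intact buds. Of 29 tested members of the branching and dormancy list 4 rose and 0 fell at 3 h over 1 h (edgeR, with 0 at an unadjusted p under 0.05, 0 by DESeq2 and 0 by limma voom). At 6 h over 1 h 4 rose and 0 fell (edgeR, with 4 at an unadjusted p under 0.05, 1 by DESeq2 and 0 by limma voom). Among all tested genes 1.64% rose at 3 h over 1 h and 4.19% at 6 h over 1 h. In the fit without 1 h c and 6 h d, both directions were called, as 5 rose and 1 fell at 3 h over 1 h and 6 rose and 3 fell at 6 h over 1 h. Of the 4 genes annotated as dormancy/auxin associated 3 rose at 6 h over 1 h.

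The first of them (Sobic.001G191200, matched to AT2G33830) was at 68.1, 77.5 and 133 CPM at 1 h, 285, 241 and 238 CPM at 3 h, and 193, 382 and 249 CPM at 6 h. The 1 h libraries were lowest, and 3 h and 6 h overlapped. This gene rose at 6 h over 1 h (1.56 ± 0.29, edgeR, Benjamini-Hochberg adjusted p = 0.011), and its rise at 3 h over 1 h (1.45 ± 0.29, edgeR, Benjamini-Hochberg adjusted p = 0.029) was lost without 1 h b, 3 h a, 3 h b or 3 h c. A second (Sobic.002G213800) was at 4.27, 4.20 and 9.48 CPM at 1 h, 19.8, 13.0 and 14.0 CPM at 3 h, and 29.2, 49.6 and 24.4 CPM at 6 h, with the groups apart. It rose at 6 h over 1 h (2.52 ± 0.37, edgeR, Benjamini-Hochberg adjusted p = 0.0039). The third (Sobic.001G377000) rose at 6 h over 1 h (1.18 ± 0.23, edgeR, Benjamini-Hochberg adjusted p = 0.013), and the fourth (Sobic.007G148200) had a fold change of 0.72 ± 0.20, edgeR, Benjamini-Hochberg adjusted p = 0.059.

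All 4 of these genes had positive 3 h over 1 h fold changes in intact buds and negative ones in leaf-removed buds. The means of Sobic.001G191200 were 87.1, 239 and 258 CPM in intact buds at 1, 3 and 6 h, and 209.9, 34.6 and 45.2 CPM in leaf-removed buds, and its 3 h over 1 h changes differed by 4.06 ± 0.40, edgeR, Benjamini-Hochberg adjusted p = 3.1e-06. Those of Sobic.002G213800 differed by 3.71 ± 0.47, edgeR, Benjamini-Hochberg adjusted p = 3.3e-05.

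BRC1 did not pass the test in intact buds. The first BRC1 gene (Sobic.002G198400) was at 8.24, 6.50 and 6.99 CPM at 1 h, 7.24, 7.05 and 10.3 CPM at 3 h, and 5.98, 7.44 and 6.15 CPM at 6 h, with all groups overlapping (6 h over 1 h -0.15 ± 0.21, edgeR, Benjamini-Hochberg adjusted p = 0.70). The second (Sobic.007G135700) was between 0.235 and 1.95 CPM (6 h over 1 h 0.98 ± 0.60, edgeR, Benjamini-Hochberg adjusted p = 0.34). In the first step the first had fold changes of 0.18 in intact buds and 1.16 in leaf-removed buds, a difference of -0.98 ± 0.26, edgeR, Benjamini-Hochberg adjusted p = 0.0094, and its means were 6.78, 7.68 and 6.13 CPM in intact buds at 1, 3 and 6 h, and 3.19, 7.13 and 5.37 CPM in leaf-removed buds.

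Hormone lists differed in how many members were called at 6 h over 1 h, where 8.15% of all tested genes were. Of 65 cytokinin genes 6 rose and 1 fell at 6 h over 1 h, but 4 of the tested members are PRR or TOC1 genes that the annotation words brought in. PRR7, both PRR5 genes and TOC1 rose in that comparison (edgeR, Benjamini-Hochberg adjusted p = 0.044, 6.8e-05, 4.9e-04 and 9.2e-04). The rises of this list are therefore in large part those of clock genes. Of 45 abscisic acid genes 6 rose and 1 fell, of 34 jasmonate genes 1 rose and 4 fell, of 16 brassinosteroid genes 2 rose and 2 fell and of 81 Aux/IAA, SAUR, GH3 and ARF genes 1 rose and 2 fell. Of 36 ethylene genes 4 rose and 0 fell (edgeR, with 2 at an unadjusted p under 0.05, 0 by DESeq2 and 0 by limma voom). When 1 h c and 6 h d were left out, 3 rose and 3 fell of 37 ethylene genes, 1 rose and 9 fell of 34 jasmonate genes and 9 rose and 2 fell of 48 abscisic acid genes.

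JAZ2 (Sobic.002G374100), a repressor of jasmonate responses, was at 193, 225 and 195 CPM at 1 h, 93.3, 101.3 and 95.6 CPM at 3 h, and 100.8, 91.3 and 109.7 CPM at 6 h. Every 1 h library was far above any later one. JAZ2 fell at 3 h over 1 h (-1.08 ± 0.12, edgeR, Benjamini-Hochberg adjusted p = 0.0035) and at 6 h over 1 h (-1.02 ± 0.12, edgeR, Benjamini-Hochberg adjusted p = 9.9e-04). The abscisic acid receptor PYL8 (Sobic.009G080200) was at 35.9, 30.1 and 36.3 CPM at 1 h, 54.7, 47.7 and 36.8 CPM at 3 h, and 66.6, 74.6 and 61.8 CPM at 6 h. PYL8 rose at 6 h over 1 h (0.99 ± 0.16, edgeR, Benjamini-Hochberg adjusted p = 0.0061). The ethylene receptor EIN4 (Sobic.004G349175) was at 29.3, 14.9 and 29.7 CPM at 1 h, 40.5, 42.5 and 39.1 CPM at 3 h, and 61.5, 61.8 and 55.8 CPM at 6 h, with no overlap and 1 h c lowest. EIN4 rose at 6 h over 1 h (1.28 ± 0.22, edgeR, Benjamini-Hochberg adjusted p = 0.0086).

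For 27 auxin transport and synthesis genes the calls at 6 h over 1 h were 0 up (edgeR, with 1 at an unadjusted p under 0.05, 1 by DESeq2 and 0 by limma voom) and 0 down (edgeR, with 3 at an unadjusted p under 0.05, 0 by DESeq2 and 0 by limma voom). Without 1 h c and 6 h d 0 rose and 1 fell. For 16 gibberellin genes they were 0 up (edgeR, with 2 at an unadjusted p under 0.05, 1 by DESeq2 and 0 by limma voom) and 0 down (edgeR, with 1 at an unadjusted p under 0.05, 0 by DESeq2 and 0 by limma voom). For 14 sulfur assimilation genes they were likewise 0 up (edgeR, with 1 at an unadjusted p under 0.05, 0 by DESeq2 and 0 by limma voom) and 0 down (edgeR, with 2 at an unadjusted p under 0.05, 0 by DESeq2 and 0 by limma voom).

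Wall genes moved both ways. Of 52 expansins and xyloglucan enzymes 6 rose and 5 fell at 6 h over 1 h, and of 21 cellulose synthases 2 rose and 2 fell. Among all tested genes 4.19% rose and 3.96% fell. MERI-5 (Sobic.006G205600), a xyloglucan endotransglucosylase, was at 0.444, 0.441 and 1.39 CPM at 1 h, 2.19, 1.65 and 2.99 CPM at 3 h, and 17.995, 9.31 and 7.92 CPM at 6 h. Each 6 h library exceeded all earlier ones, and 1 h and 3 h were apart. MERI-5 rose at 6 h over 1 h (3.94 ± 0.52, edgeR, Benjamini-Hochberg adjusted p = 0.002). XTH25 (Sobic.007G090463) rose (2.06 ± 0.26, edgeR, Benjamini-Hochberg adjusted p = 0.0015), while the expansin EXPB4 (Sobic.004G294300), of a family that loosens walls, was at 29.0, 18.3 and 21.3 CPM at 1 h, 5.32, 9.501 and 7.05 CPM at 3 h, and 3.58, 6.04 and 3.37 CPM at 6 h and fell (-2.40 ± 0.30, edgeR, Benjamini-Hochberg adjusted p = 0.0017).

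Among 40 genes of iron and metal handling 4 rose and 1 fell at 6 h over 1 h. The shares over all tested genes were 4.19% and 3.96%. ZIP1 (Sobic.007G075700), a zinc transporter, was at 3.28, 4.14 and 4.95 CPM at 1 h, 14.8, 11.2 and 11.9 CPM at 3 h, and 22.9, 30.9 and 17.6 CPM at 6 h, with each later group higher. ZIP1 rose at 6 h over 1 h (2.53 ± 0.25, edgeR, Benjamini-Hochberg adjusted p = 4.5e-04). Ferritin FER4 (Sobic.008G004800), which stores iron in plastids, was at 72.0, 44.7 and 94.7 CPM at 1 h, 162, 142 and 158 CPM at 3 h, and 200.2, 232 and 221 CPM at 6 h. FER4 rose at 6 h over 1 h (1.63 ± 0.22, edgeR, Benjamini-Hochberg adjusted p = 0.0026).

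Light signalling genes had 1 call at 6 h over 1 h. Of 27 photoreceptor and light signalling genes 1 fell and 0 rose at 6 h over 1 h (edgeR, with 2 at an unadjusted p under 0.05, 0 by DESeq2 and 0 by limma voom). That share of falls was near the 3.96% of all tested genes. With 1 h c and 6 h d left out, 0 rose and 4 fell. The gene called with all 9 libraries was HY5 (Sobic.004G085600), a bZIP transcription factor, at 14.3, 12.1 and 16.1 CPM at 1 h, 15.4, 12.9 and 13.0 CPM at 3 h, and 8.204, 8.80 and 7.55 CPM at 6 h (-0.79 ± 0.17, edgeR, Benjamini-Hochberg adjusted p = 0.019, lost without 1 h b, 1 h d, 6 h a or 6 h d). Phototropin 2 (NPL1, Sobic.007G105500), a blue light receptor, was at 6.97, 10.2 and 7.86 CPM at 1 h, 17.3, 15.1 and 12.6 CPM at 3 h, and 3.85, 3.85 and 6.88 CPM at 6 h. It was highest at 3 h, and its fall at 6 h over 3 h (-1.62 ± 0.27, edgeR, Benjamini-Hochberg adjusted p = 0.03) was lost without 6 of the 9 libraries in turn.

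Lists of markers of other tissues were read in the same way, beside 4.19% of all tested genes rising and 3.96% falling. Of 28 cuticle and epidermis genes 2 rose and 1 fell at 6 h over 1 h, and of 30 vascular and secondary wall genes 2 rose and 0 fell (edgeR, with 1 at an unadjusted p under 0.05, 0 by DESeq2 and 0 by limma voom). The medians of these lists were 0.16 and 0.10, and that of the mature C4 leaf list -0.03. For the cuticle list the summed level ran between 1333 and 1926 CPM over the 9 libraries, and for the vascular list between 372 and 634 CPM, both lowest in 1 h c. The gene with the most reads at every time was an elongation factor Tu gene (Sobic.010G182200), with 0.554%, 0.563% and 0.546% of exon reads at 1, 3 and 6 h, of which 74.3% were unique.

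In the remaining lists at 6 h over 1 h, 1 rose and 1 fell of 23 aquaporins, 1 rose and 1 fell of 45 flavonoid and phenylpropanoid genes, and 6 rose and 7 fell of 136 peroxidases and glutathione transferases. In the list of 41 meristem homeobox and boundary genes 1 rose and 2 fell, and in that of 24 chlorophyll and carotenoid genes 1 rose and 1 fell. Among 29 nitrogen genes 2 fell and 0 rose (edgeR, with 2 at an unadjusted p under 0.05, 1 by DESeq2 and 0 by limma voom). Among 19 sugar starvation markers 1 rose and 0 fell (edgeR, with 4 at an unadjusted p under 0.05, 2 by DESeq2 and 0 by limma voom), and among 8 plastid ribosome markers 1 rose and 0 fell (edgeR, with 0 at an unadjusted p under 0.05, 0 by DESeq2 and 0 by limma voom). In the fit without 1 h c and 6 h d, 3 rose and 3 fell of 43 flavonoid genes, 0 rose and 4 fell of 29 nitrogen genes and 2 rose and 3 fell of 20 sugar starvation markers. With all 9 libraries the shares over all tested genes were 4.19% rising and 3.96% falling at 6 h over 1 h.

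**Figure D5:**
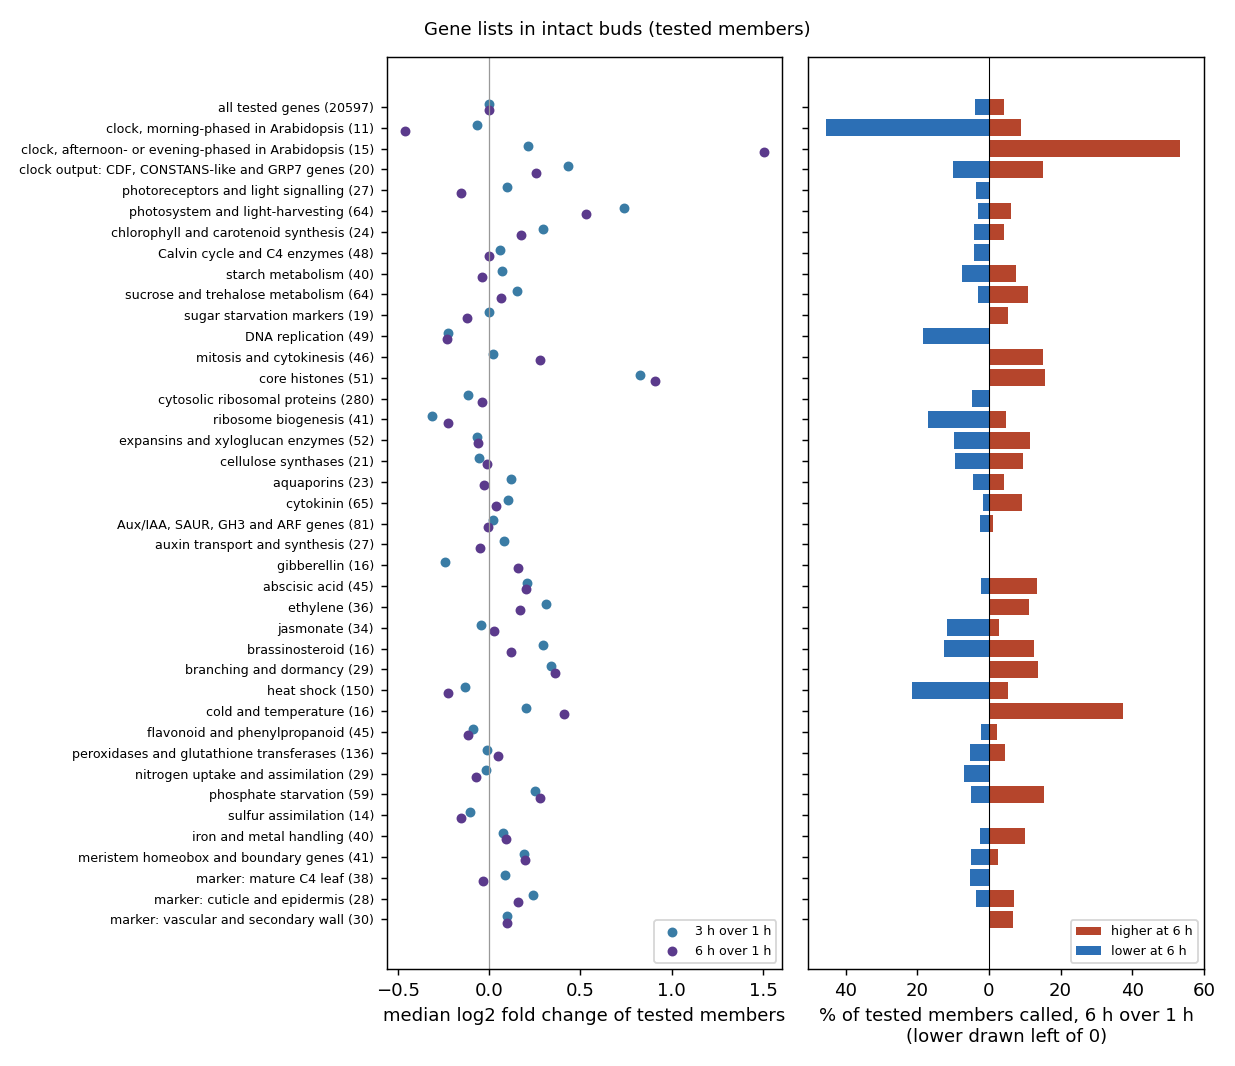
Median log2 fold change of the tested members of each gene list at 3 h over 1 h and 6 h over 1 h (left), and the percent of tested members called higher (right of 0) or lower (left of 0) at 6 h over 1 h (right). List sizes are in parentheses. The evening clock list has the highest median, 1.51, and the morning clock list the lowest, -0.46, at 6 h over 1 h.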

How the data were processed

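RNA from bud pools was sequenced as 125 bp reads, per the labels' protocols. The deposited table gives the authors' exon read counts per gene, total and unique, and intron counts, per the file headers. Its RPKM values, counts scaled to exon length and library size by the authors per the file headers, were used for markers. The aligner and genome build are not given in the sources used here, and 54 columns of per-sample values were not used.

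The 9 intact libraries were fitted together with edgeR 4.0.16 in R 4.3.3 (quasi-likelihood, TMM, filterByExpr, Benjamini-Hochberg over all tested genes, threshold 0.05). Each standard error is the fold change divided by the square root of F. Another fit of all 18 libraries tested differences between time changes. The test was checked on simulated counts. Library size sets the counting precision.

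Members and lists were chosen with earlier results of these data known. Families inside the lists were picked by words in gene titles after the values were seen. Named genes were the 8 highest and 8 lowest called genes per comparison with a symbol, groups that did not overlap, a minimum of 10 reads where lower and of 5 CPM where higher, then every tested clock gene, 3 members per list by smallest F test p, 5 per time profile, the BRC1, TCP and dormancy genes, and the gene with most reads. Genes named only as markers, or for having a count of 0, were added. Alternatives used DESeq2 1.42.0, limma 3.58.1 voom, other scalings, filters and library subsets.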

Additional observations from a re-analysis of the deposited data

Results flagged for a closer look

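In 17 of 38 tested clock, TCP and dormancy genes the 3 h over 1 h change differed between intact and leaf-removed buds by the test of the difference itself (edgeR, Benjamini-Hochberg adjusted p under 0.05, called in 26.6% of all genes tested and in 68.2% of those called in intact buds at this step). The 68.2% is of genes picked by their intact change, which is part of the difference. Differences of the other named genes were not listed. Values are the log2 fold change in intact buds minus that in leaf-removed buds. For the dormancy/auxin associated genes it was 4.06 for Sobic.001G191200, 3.49 for Sobic.001G377000, 3.71 for Sobic.002G213800 and 2.38 for Sobic.007G148200. For the TCP genes it was -0.98 for BRC1 (Sobic.002G198400) and 1.18 for PCF1 (Sobic.003G408400).

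Among clock genes the difference was 3.90 for RVE1 (Sobic.006G192100), 3.77 and 0.78 for the CIR1 genes Sobic.004G279300 and Sobic.010G275700, and 1.53 for the LNK3 locus gene Sobic.003G134400. It was 1.79 and 1.45 for the PRR5 genes Sobic.002G275100 and Sobic.005G044400, 0.84 for GI (Sobic.003G040900) and 0.82 for TOC1 (Sobic.004G216700). It was 0.77 and 1.56 for the ELF3 genes Sobic.003G191700 and Sobic.009G257300, and -0.87 for Sobic.004G281800, matched to AT5G52660. The call of Sobic.004G216700 was lost without 12 of the 18 libraries in turn, that of Sobic.003G191700 without 9, that of Sobic.003G134400 without 7 and that of Sobic.010G275700 without 2. The other 13 held without each of the 18.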

How the results depend on the processing

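Counts of called genes over the 3 times, at 3 h over 1 h, at 6 h over 3 h and at 6 h over 1 h were 1271, 721, 124 and 1679. DESeq2 gave 2853, 1896, 390 and 2909. A fit of all 18 libraries gave 2125, 1464 and 196 for the first 3. Intron share as a covariate gave 2666, 2191 and 521, and leaving out 1 h c and 6 h d gave 2661, 1534 and 789. Intron reads in place of exon reads, chosen after seeing the data, gave 151, 13, 17 and 284. With the replicate letters as a block the counts were 44, 1, 6 and 121. Deviations of same-letter libraries correlated between -0.55 and 0.34. Not every letter is present at every time, so these values cannot show whether pools of a letter share a batch. A minimum of 2-fold gave 233 at 3 h over 1 h and 659 at 6 h over 1 h, and fits of only the 6 libraries compared gave 449 and 539. Leaving out 1 library gave 565 to 1206, 25 to 875, 34 to 253 and 776 to 1476. The share of calls that rose at 6 h over 3 h was 63.7%, against 53.6% without 1 h c and 6 h d, 40.9% with the intron covariate and 50% with the block, and at 6 h over 1 h it was 51.4%, against 66.1% with the block. The intact against leaf-removed difference at 6 h over 3 h was called in 710 genes, and in 3809 without 5 libraries. Leaving out each of the 18 libraries in turn, chosen after seeing the data, gave 447 to 1073 for it, and 4734 to 6173 at 3 h over 1 h, where the count was 5820. RLE factors, library totals, no filter, a 1 CPM filter, voom and unique reads kept each count of the intact comparisons within 1.5 times. With RLE factors and library totals the median of all genes was at most 0.03. At 3 h over 1 h 46.7% of calls rose, against 54.5% with library totals, and at 6 h over 1 h 48.0% without 1 h c and 6 h d, 48.8% in the fit of all 18 libraries and 46.0% with the intron covariate.

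By intron reads 12 log2 values had the opposite sign to their exon call. At 6 h over 1 h they were 0.29 for Sobic.001G172400, -0.12 for Sobic.001G377000, -0.69 for Sobic.001G527100, -0.51 for Sobic.002G035500, -0.021 for Sobic.002G145800, 0.088 for Sobic.003G036000, 0.27 for Sobic.004G077800, 0.035 for Sobic.008G157000 and -0.44 for Sobic.008G173900. At 3 h over 1 h they were -1.95 for Sobic.001G527100, -0.37 for Sobic.003G197400 and 0.033 for Sobic.004G166700. The cause of these differences was not tested. Of 233 calls of named genes 117 held without each of the 9 libraries.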
